A study of Homo sapiens with 8 samples.

Results

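The hexosamine pathway and O-GlcNAc genes are 10 genes around the sugar nucleotide UDP-GlcNAc. Their enzymes make, use or refill it or lead on from it to sialic acid, and UAP1L1 is included as a paralog of UAP1. They are GFPT1, GFPT2, GNPNAT1, PGM3, UAP1, UAP1L1, OGT, NAGK, GNE and NANS, taken by symbol from the 15745 named genes with counts. All 10 had a row, and 9 had enough counts to be among the 12910 genes tested. RNA-seq was performed on wildtype HuH7 cells, a human hepatoma line, in 2 groups of 4 libraries. Every culture was held in glucose-free DMEM at 1% oxygen for 6 h and then reoxygenated for 6 h, a model of ischemia and reperfusion called oxygen-glucose deprivation and reperfusion (OGD/R). Reoxygenation took place with the solvent DMSO (OGD/R+DMSO) or with the ginsenoside Rk2, a ginseng saponin, at 20 µM (OGD/R+Rk2). Cells without OGD/R were not analysed here, so the comparison asks what differed between Rk2 and solvent after the same injury. The genes, and the contrast of UAP1L1 with UAP1, were selected on the counts of these same libraries, with the differences between the groups already known, so their values are a description and no member is tested independently. The labels do not say that the libraries of a group came from separate cultures, and p-values then measure only the spread between these libraries.

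UDP-GlcNAc is made from fructose 6-phosphate, glutamine, acetyl-CoA and UTP by the hexosamine pathway. GFPT1 and GFPT2 open the route, GNPNAT1 adds the acetyl group, PGM3 moves the phosphate, and UAP1 joins the sugar phosphate to UTP. The product feeds N-glycans built in the endoplasmic reticulum, hyaluronan and proteoglycans, sialic acid, and the O-GlcNAc mark that OGT places on nuclear and cytoplasmic proteins. In liver the pathway is known as a sensor of nutrient supply and as part of the response to protein-folding stress.

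Library totals ranged from 18428485 to 21447045 counts in OGD/R+DMSO and from 16374082 to 30310479 in OGD/R+Rk2. The library OGD/R+DMSO 1 stood apart on principal component 2, at 78.7 where the other solvent libraries were at -48.6 to -41.4. On principal component 1, which separated the groups, it was at -114.4 and the other solvent libraries at -54.83 to -29.96. The OGD/R+Rk2 libraries were at 47.07 to 85.69 there. Where a named gene's call changed without OGD/R+DMSO 1, its value without that library is given. All 10 hepatocyte markers examined were expressed, with ALB between 973.5 and 1046 FPKM. Of 6 markers of other cell types, PTPRC and VWF were listed at 0 in every library and CD68 reached 24.1 to 32.6 FPKM. The summed level of these 6 was 28.1 to 34.3 FPKM in OGD/R+DMSO and 26.4 to 34.2 in OGD/R+Rk2. In bulk RNA fewer expressing cells and less RNA per cell cannot be told apart.

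UAP1 and UAP1L1 are paralogs on different chromosomes, and their coding sequences show how far reads of the pair can be separated. UAP1 lies at chr1:162561506-162599842 on the plus strand and UAP1L1 at chr9:137077501-137084539 on the plus strand (GRCh38, GENCODE v29). Their coding sequences of 1566 and 1521 bases shared 911 of 1511 aligned bases, or 60.3%. The longest identical run was 11 bases, and no stretch of 31 bases was common to the transcripts of both genes. The most similar 60 coding bases are printed 5′ to 3′ with the 12 differing bases in capitals. The UAP1 window crosses exons 7 and 8 (chr1:162588777-162590325) and the UAP1L1 window exons 6 and 7 (chr9:137080086-137080691), the ranges including the intron between them.
UAP1: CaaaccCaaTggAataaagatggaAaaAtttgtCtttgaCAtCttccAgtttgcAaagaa
UAP1L1: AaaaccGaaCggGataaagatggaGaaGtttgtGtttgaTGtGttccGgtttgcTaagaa
Even in this window the differing bases were spread along the whole 60, with no identical run longer than the 11 bases above.

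Of the 9 tested genes, 5 were higher in OGD/R+Rk2 at an adjusted p under 0.05 in the edgeR fit over all genes, and 0 were lower. None were lower at an unadjusted p under 0.05 either (0 in edgeR), and DESeq2 also called 0 lower. These were UAP1L1, GFPT1, PGM3, OGT and UAP1. Over all tested genes 18.2% were called, 11.0% higher and 7.24% lower, and nothing is read from the members' count against these shares, since this contrast was known when they were chosen. UAP1L1, GFPT1 and PGM3 also passed a fold change of 1.5, as did 2.46% of all genes upward and 0.581% downward. The groups did not overlap in 4 of the genes, each with OGD/R+Rk2 above, as in 15.4% of all genes, beside 12.9% with OGD/R+Rk2 below and 28.3% either way. The median log2 fold change of the 9 was 0.51, with a range of -0.04 to 1.2, beside a median of -0.0021 over all genes. Together the 10 genes held 0.0593% to 0.0622% of the counts in OGD/R+DMSO and 0.0846% to 0.0945% in OGD/R+Rk2.

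**Figure D1:**
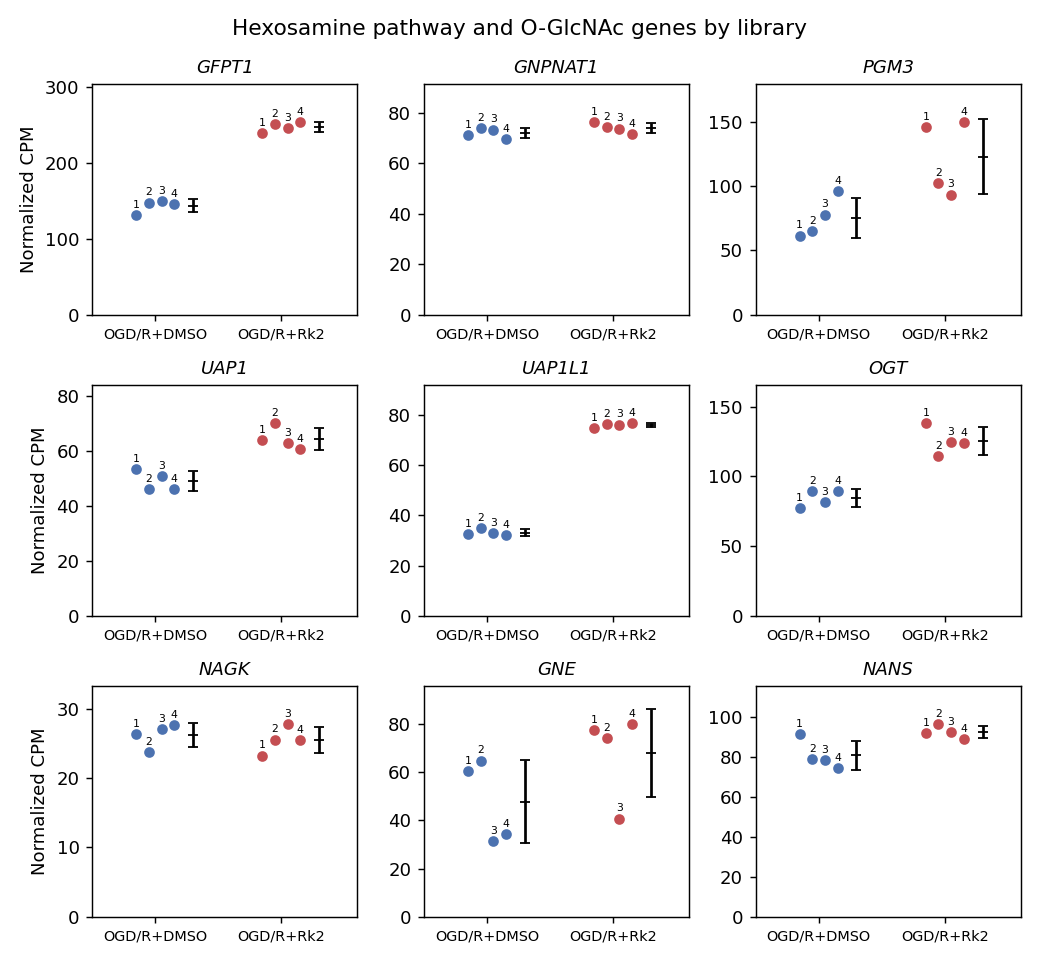
Normalized CPM (linear axes from 0) of the 9 tested genes in each library, numbered by replicate, with OGD/R+DMSO in blue, OGD/R+Rk2 in red and bars for the mean ± SD of 4 libraries. The groups are apart in GFPT1, UAP1, UAP1L1 and OGT, and they overlap in GNPNAT1, PGM3, NAGK, GNE and NANS.

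GFPT1, the glutamine:fructose-6-phosphate aminotransferase that sets the pace of the pathway, had the most counts of the 10. It lies at chr2:69319769-69387254 on the minus strand. Its normalized CPM (counts scaled to a common library size) was 131.3, 147.4, 149.8 and 145.6 in the 4 OGD/R+DMSO libraries and 238.7, 250.6, 245.2 and 253.6 in the 4 OGD/R+Rk2 libraries. Every OGD/R+Rk2 library was above every OGD/R+DMSO library by a wide margin. The mean rose from 143.5 ± 8.35 to 247.0 ± 6.56 CPM (SD, n = 4 each), giving a log2 fold change of 0.78 (SE 0.0489). By p it ranked 20 of the 12910 genes.

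GFPT2, the second aminotransferase, is at chr5:180300690-180353387 on the minus strand and was hardly present in these cells. It had 4, 6, 0 and 3 counts in OGD/R+DMSO and 2, 0, 0 and 0 in OGD/R+Rk2. It was therefore left out of the test, and a difference was not detectable at this depth. The coding sequences of GFPT1 and GFPT2 were 71.8% identical (1470 of 2046 aligned bases) with no shared stretch of 31 bases, and the level of GFPT2 was at most 0.0884 FPKM where that of GFPT1 was at least 12.4 FPKM.

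GNPNAT1, the N-acetyltransferase of the next step, did not pass the test. Its CPM was 71.1, 74.0, 73.4 and 69.5 in OGD/R+DMSO and 76.4, 74.5, 73.8 and 71.8 in OGD/R+Rk2. The groups overlapped, with means of 71.99 ± 2.07 and 74.1 ± 1.92 CPM (SD, n = 4 each) and a log2 fold change of 0.04 (SE 0.0411). The gene is at chr14:52775194-52791668 on the minus strand, where 1426 bases of its exons overlap AL139317.3 on the other strand.

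PGM3, the phosphoacetylglucosamine mutase, was called higher, with the most spread of the 5 called members. Its CPM was 61.6, 64.9, 77.9 and 96.2 in OGD/R+DMSO and 146.1, 102.3, 93.6 and 150.1 in OGD/R+Rk2. OGD/R+DMSO 4 was above OGD/R+Rk2 3, so the groups overlapped. The mean went from 75.2 ± 15.7 to 123.0 ± 29.2 CPM (SD, n = 4 each), giving a log2 fold change of 0.71 (SE 0.202). In FPKM, which the authors made separately, the groups did not overlap, with 15.2 to 21.9 in OGD/R+DMSO and 26.4 to 35.2 in OGD/R+Rk2. The call held without OGD/R+DMSO 4 or without OGD/R+Rk2 3, at log2 fold changes of 0.85 and 0.82. Without any one of the other libraries it was lost, at log2 fold changes of 0.60 to 0.79 (0.63 without OGD/R+DMSO 1). It was also lost with voom, without the count filter and with a correction for gene length, at log2 fold changes of 0.67, 0.71 and 0.62. PGM3 is at chr6:83161150-83193936 on the minus strand, where 1087 bases of its exons overlap DOP1A on the other strand. Whether reads were counted by strand is not given in the sources used here.

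UAP1, the pyrophosphorylase that makes UDP-GlcNAc, rose by less than the other called members. Its CPM was 53.4, 46.0, 50.8 and 46.0 in OGD/R+DMSO and 63.8, 69.9, 62.8 and 60.6 in OGD/R+Rk2. The lowest OGD/R+Rk2 library was above the highest OGD/R+DMSO library. The means were 49.0 ± 3.68 and 64.3 ± 4.0 CPM (SD, n = 4 each), giving a log2 fold change of 0.39 (SE 0.0693).

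UAP1L1, the less studied paralog of UAP1, had the highest fold change of the 9. Its CPM was 32.7, 34.9, 33.1 and 32.05 in OGD/R+DMSO and 74.9, 76.5, 76.3 and 76.8 in OGD/R+Rk2. Libraries of a group lay close together and the groups far apart. The mean rose from 33.2 ± 1.22 to 76.1 ± 0.861 CPM (SD, n = 4 each), giving a log2 fold change of 1.2 (SE 0.0435), which ranked 4 by p among all genes. The coefficient of variation of UAP1L1 was 3.68% within OGD/R+DMSO and 1.13% within OGD/R+Rk2. The medians over genes with at least 5 CPM were 8.42% and 6.29%. At 1261 to 2285 counts per OGD/R+Rk2 library, counting noise alone would be expected to exceed 1.13%. The small value is therefore not read as a property of the gene, which was picked with the group difference known. With each library left out in turn its log2 fold change stayed between 1.18 and 1.22.

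In levels per length, UAP1L1 was below UAP1 in all 8 libraries, and the distance was smaller with Rk2. UAP1 was at 22.03, 18.6, 21.2 and 18.9 FPKM in OGD/R+DMSO and at 26.0, 27.8, 24.9 and 24.6 FPKM in OGD/R+Rk2. UAP1L1 was at 8.37, 9.21, 8.11 and 8.60 FPKM in OGD/R+DMSO and at 18.6, 20.9, 19.2 and 20.1 FPKM in OGD/R+Rk2. The ratio of UAP1L1 to UAP1 was 0.428 ± 0.0563 (SD, n = 4) in OGD/R+DMSO, with a range of 0.380 to 0.494. In OGD/R+Rk2 it was 0.765 ± 0.0433 (SD, n = 4), with a range of 0.716 to 0.819. The log2 ratio thus differed by 0.85 between groups in FPKM, and the fitted log2 fold changes from counts differed by 0.81. The pair was chosen for this difference, which is therefore not tested.

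**Figure D2:**
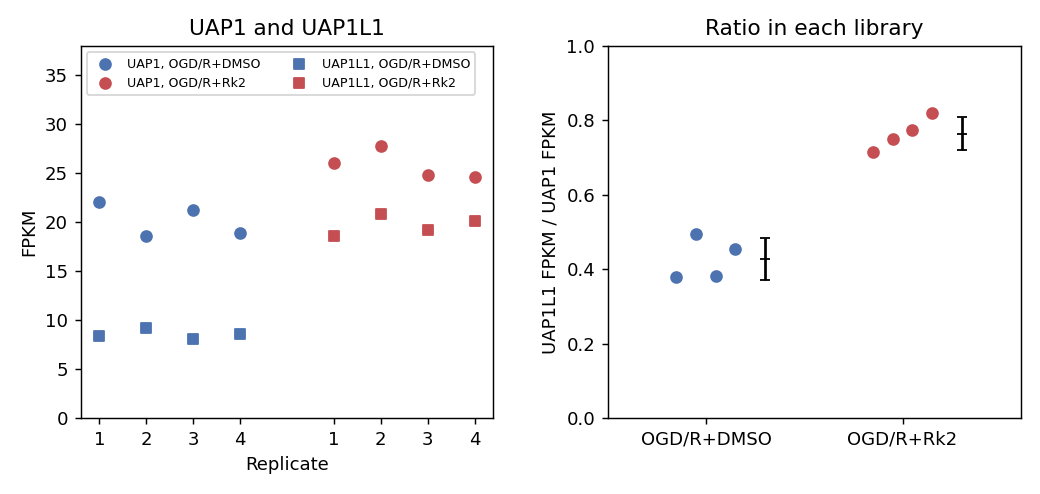
FPKM of UAP1 (circles) and UAP1L1 (squares) in each library by replicate, and their ratio in each library with bars for the mean ± SD of 4 libraries, both on linear axes from 0. UAP1L1 is below UAP1 in every library, and the ratio moves from 0.380 to 0.494 in OGD/R+DMSO (blue) to 0.716 to 0.819 in OGD/R+Rk2 (red).

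OGT, the only enzyme that adds O-GlcNAc to nuclear and cytoplasmic proteins, was also called higher. Its CPM was 77.1, 89.7, 81.7 and 89.4 in OGD/R+DMSO and 138.1, 114.3, 124.8 and 124.1 in OGD/R+Rk2. The groups did not overlap. The mean rose from 84.5 ± 6.15 to 125.3 ± 9.78 CPM (SD, n = 4 each), giving a log2 fold change of 0.57 (SE 0.0727). The gene lies at chrX:71533083-71575897 on the plus strand. MGEA5, an older symbol of the O-GlcNAcase that takes the mark off, is no member, and its CPM was 74.2 ± 5.50 and 77.0 ± 1.84 (SD, n = 4 each). Its log2 fold change of 0.05 did not pass the test (adjusted p = 0.564, edgeR with Benjamini-Hochberg adjustment).

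NAGK, the kinase that returns salvaged GlcNAc to the pathway, did not pass the test. Its CPM was 26.4, 23.7, 27.0 and 27.6 in OGD/R+DMSO and 23.2, 25.6, 27.7 and 25.4 in OGD/R+Rk2. The 8 libraries were interleaved, with means of 26.2 ± 1.70 and 25.5 ± 1.83 CPM (SD, n = 4 each) and a log2 fold change of -0.04 (SE 0.0740). The gene is at chr2:71064344-71079805 on the plus strand.

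GNE and NANS lead from UDP-GlcNAc to sialic acid, and neither passed the test. GNE, the epimerase and kinase that starts this branch, had a CPM of 60.5, 64.7, 31.5 and 34.4 in OGD/R+DMSO and 77.5, 73.9, 40.7 and 79.7 in OGD/R+Rk2. It varied most of the 9 within groups, with OGD/R+DMSO 3 and 4 and OGD/R+Rk2 3 low. The means were 47.8 ± 17.2 and 68.0 ± 18.3 CPM (SD, n = 4 each), giving a log2 fold change of 0.51 (SE 0.302). In those 3 libraries the CPM of GNE, here scaled by library total only, was 3.02 to 3.06 times its FPKM. In the other libraries it was 3.99 to 5.39 times. The part of this ratio in the spread was not tested. GNE is at chr9:36214441-36277056 on the minus strand.

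NANS, which condenses the sugar with phosphoenolpyruvate, had a CPM of 91.4, 79.0, 78.2 and 74.5 in OGD/R+DMSO and 91.9, 96.2, 92.4 and 88.9 in OGD/R+Rk2. OGD/R+DMSO 1 lay among the OGD/R+Rk2 libraries and apart from its own group. The means were 80.8 ± 7.34 and 92.4 ± 2.99 CPM (SD, n = 4 each), giving a log2 fold change of 0.19 (SE 0.0664). Without OGD/R+DMSO 1 the log2 fold change was 0.26 and passed the threshold. In FPKM the groups overlapped, with 53.0 to 63.5 and 52.6 to 67.7. NANS is at chr9:98056739-98083075 on the plus strand, where 422 bases of its exons overlap TRIM14 on the other strand.

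**Figure D3:**
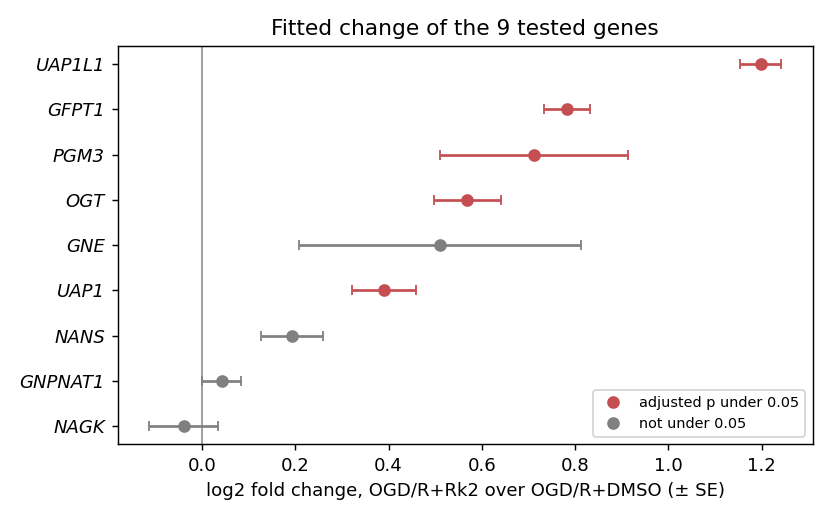
Log2 fold change of OGD/R+Rk2 over OGD/R+DMSO from the edgeR fit for the 9 tested genes, with bars for ± SE and red for an adjusted p under 0.05. UAP1L1 stands at 1.2, GFPT1, PGM3, OGT, GNE and UAP1 lie between 0.39 and 0.78, and the bars of GNE and PGM3 are the widest.

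Levels between genes were compared in FPKM, a value per length. In OGD/R+DMSO, NANS was the highest at 53.0 to 63.5 FPKM. NAGK, UAP1, GNPNAT1 and PGM3 followed, and the ranges of neighbours overlapped, from 15.2 FPKM in the lowest PGM3 library to 22.9 in the highest GNPNAT1 library. GFPT1, OGT and GNE came next, between 10.3 and 15.9 FPKM, again with overlapping neighbours. GFPT1 was below PGM3 without overlap. The highest libraries of OGT (15.8) and GNE (15.9) were above the lowest PGM3 library, so these genes were not fully apart from those before. UAP1L1 was below all of these at 8.11 to 9.21 FPKM, and GFPT2 was last. This order depended on the length used. As mean CPM per kilobase of all exons, GNPNAT1 (17.8) came before NANS (16.2) and GFPT1 (16.0), UAP1 (14.1) and PGM3 (10.1) followed, and NAGK (2.91) was below UAP1L1 (6.21). With Rk2 the order of mean FPKM was NANS, PGM3, UAP1, GFPT1, GNPNAT1, UAP1L1, OGT, NAGK, GNE and GFPT2. From PGM3 to GNE the ranges of neighbours overlapped. UAP1L1 (18.63 to 20.86), OGT (19.15 to 20.39) and NAGK (15.22 to 22.07) were not told apart in this order. The ratio of CPM to FPKM should be steady for a gene of constant effective length, and over the 8 libraries its highest value was 1.01 times its lowest for GFPT1, 1.08 for UAP1 and 1.09 for UAP1L1. For PGM3 and GNE it was 1.53 and 1.79 times, beside a median of 1.25 over all tested genes.

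The sequence before the start sites was searched for motifs known from the responses to protein-folding and amino acid stress. Promoter windows of RefSeq (GRCh38.p14) from 250 bases before to 50 bases after the start were matched for 9 of the 10 genes, without UAP1L1. Both strands were searched for 6 motifs. The core of the unfolded protein response element, TGACGTG, was found in UAP1 and in NANS. It was in 1.97% of all 35116 windows and in 2.395% of the 27305 genes with windows. Its longer form TGACGTGG, which overlaps it, was in NANS and in 0.729% of windows (0.927% of genes). The endoplasmic reticulum stress elements ERSE (0.077% of windows) and ERSE-II (0.054%), the C/EBP-ATF letters TGATGNAAN (3.61%) and the cyclic AMP element TGACGTCA (1.85%) had no match in the 9 genes. The 30 bases around each TGACGTG are shown with the motif in capitals. UAP1 was called higher, and NANS, at a log2 fold change of 0.19, passed only in some other settings. Whether the motif has a part in either value was not tested.
UAP1, chr1:162561537-162561566, plus strand: gctcccggcgcTGACGTGtctgggcggtcg
NANS, chr9:98056680-98056709, plus strand: cgaccgcgggcTGACGTGgcggggctggcg
UAP1 has 3 listed starts, and the match begins 17 bases after the first of them and 174 bases before another. The window of the remaining start did not hold it. In NANS the match begins 41 bases before the start. A match is a description of letters and not of binding.

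Other genes of UDP-GlcNAc metabolism and N-glycosylation were taken from 5 lists, 85 genes in all. Of these, 79 were tested in edgeR, 10 were higher (12.7%) and 4 were lower (5.06%), beside 11.0% and 7.24% of all genes. The changes of all 79 were under the fold of 1.5, with a median log2 fold change of 0.03. In 16 of them the OGD/R+Rk2 libraries were above those of OGD/R+DMSO without overlap, and in 4 below, beside 15.4% and 12.9% of all genes.

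**Figure D4:**
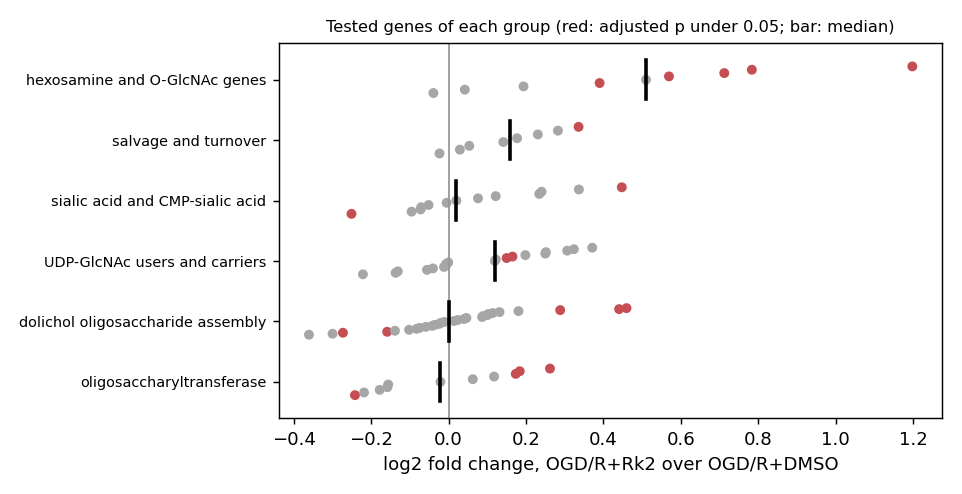
Log2 fold change of OGD/R+Rk2 over OGD/R+DMSO for each tested gene of the hexosamine and O-GlcNAc genes and of 5 further lists, with red for an adjusted p under 0.05 in the edgeR fit and a bar at each list's median. The medians are 0.51 for the hexosamine and O-GlcNAc genes, which were chosen with this contrast known, and -0.02 to 0.16 for the other lists.

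In salvage and turnover, 1 of 8 tested genes was higher and 0 were lower in edgeR (4 and 0 at an unadjusted p under 0.05, 2 and 0 in DESeq2), with a median log2 fold change of 0.16. GNPDA1, the deaminase that returns glucosamine 6-phosphate to fructose 6-phosphate and so runs against GFPT1, rose from 134.5 ± 3.40 to 169.7 ± 3.37 CPM (SD, n = 4 each), giving a log2 fold change of 0.34 (edgeR, adjusted p = 9.84e-04). In sialic acid and CMP-sialic acid, 1 of 13 was higher, 1 was lower and the median was 0.02. NANP, the phosphatase that follows NANS, rose by 0.45 on the log2 scale (edgeR, adjusted p = 0.00478), and the sialyltransferase ST3GAL2 had a log2 fold change of -0.25 (edgeR, adjusted p = 0.0175). The call of ST3GAL2 was lost without OGD/R+Rk2 2, and in FPKM its log2 fold change came as near to 0 as -0.0041. GNPDA1 and NANP passed in all 8 fits that left out a library. On the other strand, 110 bases of the exons of NANP overlap ZNF337-AS1 and 590 of ST3GAL2 overlap AC012184.1.

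Among UDP-GlcNAc users and carriers, 2 of 19 were higher and 0 were lower in edgeR (5 and 0 at an unadjusted p under 0.05, and also 0 lower in DESeq2), with a median of 0.12. These were the N-glycan branching enzymes MGAT2, with a log2 fold change of 0.15, and MGAT4B, with 0.17 (edgeR, adjusted p = 0.0319 for each). With a library left out, MGAT2 passed only without OGD/R+DMSO 1, and its adjusted p from edgeR was otherwise 0.0528 to 0.0858. MGAT4B passed in 3 of the 8 such fits, without OGD/R+DMSO 1 or 3 or OGD/R+Rk2 4, and its adjusted p was up to 0.0809. On the other strand, 2469 bases of the exons of MGAT2 overlap AL139099.1 and 105 of MGAT4B overlap SQSTM1.

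In dolichol oligosaccharide assembly, which builds the N-glycan precursor on its lipid, 3 of 28 were higher and 2 were lower, with a median of 0.0016. The mannosyltransferase ALG2 rose from 65.6 ± 2.47 to 89.0 ± 6.74 CPM (SD, n = 4 each), giving a log2 fold change of 0.44 (edgeR, adjusted p = 0.00355). NUS1, a subunit of the enzyme that makes the dolichol chain, rose by 0.29 on the log2 scale (edgeR, adjusted p = 0.00412). ALG11, named after its values were seen, had a log2 fold change of 0.46 (edgeR, adjusted p = 0.0208), and 4100 bases of its exons overlap UTP14C on the same strand. The dolichol kinase DOLK had a log2 fold change of -0.16 (edgeR, adjusted p = 0.0375) and ALG14, part of the transferase that adds the second GlcNAc from UDP-GlcNAc, one of -0.27 (edgeR, adjusted p = 0.0459). ALG2 and NUS1 passed in all 8 fits with a library left out, ALG11 in 5, DOLK in 0 and ALG14 in 1. ALG11 was lost without OGD/R+DMSO 2 or 3 or OGD/R+Rk2 3, and in the limma fits on FPKM. ALG14 passed only without OGD/R+Rk2 1. Without OGD/R+DMSO 1 the log2 fold change was -0.15 for DOLK (edgeR, adjusted p = 0.0513) and -0.21 for ALG14 (edgeR, adjusted p = 0.072). With a correction for gene length the log2 fold change was -0.062 for DOLK and -0.42 for ALG14.

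In the oligosaccharyltransferase, which moves the finished glycan onto proteins, 3 of 11 were higher and 1 was lower, with a median of -0.02. The catalytic subunits STT3B and STT3A rose by 0.26 and 0.18 on the log2 scale (edgeR, adjusted p = 0.00521 and 0.0126), and both passed in all 8 fits with a library left out. With a correction for gene length the log2 fold change of STT3A was 0.09, no longer past the threshold. RPN1, named after its values were seen, had a log2 fold change of 0.17 (edgeR, adjusted p = 0.0206). The small subunit OST4 had a log2 fold change of -0.24 (edgeR, adjusted p = 0.0297), past the threshold in 3 of the 8 fits, without OGD/R+DMSO 4 or OGD/R+Rk2 1 or 3. Without OGD/R+DMSO 1 it was -0.23 (edgeR, adjusted p = 0.0544), and with the length correction it was -0.07, not past the threshold. RPN1 passed in 4 of the 8 and was lost without OGD/R+DMSO 3 or OGD/R+Rk2 1, 2 or 3, with an adjusted p of up to 0.0562 in edgeR. Exons of STT3A share 80 bases with CHEK1 on the same strand, and those of OST4 share 151 with AGBL5 on the other.

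Likeness of pattern was measured as Pearson's r of log2 CPM over the 8 libraries, among 10460 genes with at least 5 CPM. It is given as a description, since the libraries form 2 groups. The genes most like UAP1L1 were STC2 (r = 0.998), UBE2J1 (0.998), PSAT1 (0.997), NFIL3 (0.997) and CYP51A1 (0.996). After removing the group means their r with UAP1L1 was 0.148 to 0.633. The log2 fold changes of these 5 ran from 0.49 in UBE2J1 to 1.51 in STC2. The genes most like UAP1 were PPP1R15A (r = 0.993), AREG (0.986), SLC25A25 (0.985), RASD1 (0.985) and HSD17B7 (0.981). Their r with UAP1 within groups was 0.905 to 0.956, in the same libraries by which they were picked. The most similar genes of UAP1 and of UAP1L1 had no gene in common.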

How the data were processed

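RNA was extracted by the authors with TRIzol, and libraries were made from 250 ng with an MGIEasy kit, with sequencing on the BGISEQ-500 platform. The submitters' processing notes name FastQC 0.11.5, HISAT2 2.2.1, StringTie 1.3.3 and hg38. The annotation, the counting tool and its strand setting are not given in the sources used here. The authors deposited raw counts per gene (15767 rows) and, separately, FPKM normalized for length and depth (19799 rows). Symbols turned into dates (22 and 27 rows, 0.111% of counts) were left out.

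Groups came from the deposited labels. Genes reaching 10 counts in 4 or more libraries were tested with edgeR 4.0.16 in R 4.3.3 (TMM, robust quasi-likelihood, condition only, Benjamini-Hochberg over all tested genes). CPM are TMM-normalized, except in CPM per kilobase and in ratios of CPM to FPKM, where they are scaled by library total only. Fold changes are OGD/R+Rk2 over OGD/R+DMSO. The members and lists were chosen with earlier results of these data known. Other genes were named by rule, up to 2 called in each direction per list and the 5 most correlated with UAP1 and with UAP1L1, except ALG11, RPN1 and MGEA5, named after their values were seen. Alternatives used DESeq2 1.42.0, limma 3.58.1 on log2(FPKM + 1) and log2(FPKM + 0.1), voom, other normalizations and filters, a length correction, a replicate block and leaving out each library. Replicates differed by more than counting noise (chi-square per degree of freedom 16.2 to 29.8). The edgeR step, tested on simulated data of 12806 genes, found 48 of 100 genes changed 1.5-fold and 72 of 100 changed 2-fold, with 5 false calls. No other genes were changed there, a far smaller share than the 18.2% called in the data. These rates therefore do not carry over to the fit of the data.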

Additional observations from a re-analysis of the deposited data

Results flagged for a closer look

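In 44 groups of 4 libraries, 1 library lay farther from the rest than Dixon's 95% limit allows in 3 cases, where chance gives about 5% of groups. GFPT2 had 2 counts in OGD/R+Rk2 1 and 0 in the other libraries of that group, where any count at all would be flagged. The 5% does not apply to that case. GNE was at 40.67 CPM in OGD/R+Rk2 3 and at 73.9 to 79.7 in the others. ALG2 was at 78.97 CPM in OGD/R+Rk2 3 and at 90.9 to 93.3 in the others, all above the OGD/R+DMSO mean of 65.6.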

How the results depend on the processing

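UAP1L1, GFPT1, OGT and UAP1 passed the threshold in all 8 fits that left out a library and in all 12 other settings. PGM3 passed in 2 and 7 of these. GNPNAT1, NAGK and GNE passed in 0 of the 20, and NAGK changed sign only without OGD/R+Rk2 1 (log2 fold change 0.0025, and -0.083 to 0.0025 over the libraries left out). NANS passed without OGD/R+DMSO 1, with library size only, with DESeq2 and with voom. Across all genes the log2 fold change rose with exon length (Spearman's rho = 0.335, -0.00531 after the length correction), and with the correction the log2 fold changes were 1.16 for UAP1L1, 0.66 for GFPT1, 0.43 for OGT and 0.42 for UAP1. Depth limited GFPT2.

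Deviations of libraries with the same replicate number correlated at -0.0095 to 0.0845, and those of other pairs at -0.1479 to 0.0769. The highest value was that of OGD/R+DMSO 4 with OGD/R+Rk2 4 (0.0845), while OGD/R+DMSO 1 was closest to OGD/R+Rk2 2 (0.0769). Such correlations over all genes cannot tell whether the libraries were paired. With the replicate block the calls were 1 higher among UDP-GlcNAc users, 1 lower in dolichol assembly, 0 lower in the oligosaccharyltransferase and 2 lower over all other pathway genes, and PGM3 was not past the threshold. With the replicate block and the length correction together they were 1 higher and 1 lower among UDP-GlcNAc users, 1 lower in dolichol assembly and 0 lower in the oligosaccharyltransferase.

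The small counts of the other lists moved. Salvage genes called higher were 3 with library size only, 2 with DESeq2, 2 with at least 50 counts and 1 to 3 with a library left out. With the length correction UDP-GlcNAc users had 1 higher and 2 lower and the oligosaccharyltransferase 0 lower. Upper-quartile normalization left 0 higher among UDP-GlcNAc users. In the 3 limma fits on FPKM 0 were lower in the sialic acid, dolichol and oligosaccharyltransferase lists and over all other pathway genes, and 0 higher among UDP-GlcNAc users. Without the filter limma on log2(FPKM + 1) called 6 of all other pathway genes higher. Library size only and no count filter each gave 0 lower in dolichol assembly and 2 lower over all other pathway genes. With a library left out the ranges were 0 to 1 lower in the sialic acid list, 0 to 2 higher among UDP-GlcNAc users, 0 to 1 lower in dolichol assembly, 0 to 1 lower in the oligosaccharyltransferase, and 6 to 11 higher and 0 to 3 lower over all other pathway genes. The cause was not tested.

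Levels in OGD/R+DMSO depended on the length used. As CPM per kilobase of exon they were 16.0 for GFPT1, 17.8 for GNPNAT1, 10.1 for PGM3, 14.1 for UAP1, 6.21 for UAP1L1, 8.52 for OGT, 2.91 for NAGK, 7.97 for GNE and 16.2 for NANS. NANS, which was highest in FPKM (57.3), thus came after GNPNAT1, GFPT1 came before UAP1 and PGM3, and NAGK came after UAP1L1.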
